A study of Mus musculus with 20 samples.

Results

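Homologous recombination and the Fanconi anemia pathway are DNA repair routes that also keep stalled replication forks from being degraded. A list of 36 genes of these routes was taken by gene symbol, without use of any measured value, and all 36 were found among the 13107 genes of one count table and among the 11210 genes of the other. RNA-seq had been run on mouse liver cancer cells named p19/Nras for the lesions that all groups share, loss of p19/Arf and expression of Nras. In the Myc experiment, cells given a control guide (sgCtrl, Trim33-WT) and the knockout lines Trim33-KO1 and Trim33-KO2, given a guide against Trim33 (sgTrim33), carried the empty pWZL vector (Ctrl) or a vector for Myc. In the HU experiment, Trim33-WT cells and a Trim33-KO line, for which the labels give no line number, received vehicle or 1 mM hydroxyurea (HU), which starves forks of nucleotides, for 4 hours. The data hold 20 libraries, 2 for each of 10 groups. The labels do not say that the 2 libraries came from separate cultures, so the p-values measure the spread between libraries, which may be technical, and each knockout group is 1 line.

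The Fanconi core complex is a ubiquitin ligase that is drawn to blocked forks and marks the clamp of Fancd2 and Fanci, after which nucleases such as Slx4 with Mus81 and Eme1 cut the lesion. In homologous recombination, the Mre11a-Rad50-Nbn complex and Rbbp8 trim the broken end, Brca1, Bard1, Palb2 and Brca2 prepare it for strand exchange, and Rad51c, Xrcc2, Xrcc3, Rad52, Rad54l and Rad54b assist strand pairing. Brca2 also shields forks that Smarcal1 and Zranb3 have turned back, and many of these genes are expressed mostly in S phase, under E2F factors. Trim33 is a ubiquitin ligase and chromatin reader.

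Promoter sequence was available for 30 of the 36 genes, in the RefSeq table of build GRCm38.p6, which holds 250 bases before and 50 after each start, and 4 genes had more than 1 promoter there. The letters TTTCCCGC, TTTGGCGC, TTTCGCGC or TTTGCCGC, as E2F factors are known to bind, occurred on either strand in 5 of the 34 promoters of these genes, 14.7%, against 2.26% of all 32851 promoters in the table. These 5 promoters belong to Fancg, Brca2, Bard1 and Rad51c. Of the 20 genes with a promoter that rose in the average of the knockout lines (below), 2 held the letters, 10%. Of the 10 that fell or did not pass the test, 2 held them, 20%. The windows around the match upstream of the start are shown for the 3 genes in which it lies wholly there, with the E2F letters in capitals and each written along the strand of its gene, as Fancg and Brca2 were among the genes that moved and Bard1 was not.
Fancg chr4:43010335-43010364, minus strand: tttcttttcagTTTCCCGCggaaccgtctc
Brca2 chr5:150522442-150522471, plus strand: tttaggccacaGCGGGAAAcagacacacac
Bard1 chr1:71103163-71103192, minus strand: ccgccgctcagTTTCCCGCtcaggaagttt

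The letters CCAAT, which the factor NF-Y binds, were found on either strand in 18 of the 34 promoters, 52.9%, against 37.4% of all promoters. The E box CACGTG, to which Myc with Max can bind, was in 5.88% of them against 7.15% of all, and TTTGAA or TTCGAA, the letters of the cell cycle element called CHR, in 20.6% against 19.2%. Of the 20 genes that rose, 14 held CCAAT (70%), 2 the E box (10%) and 5 the CHR letters (25%). Of the 10 that fell or did not pass the test, 3 held CCAAT (30%), 0 the E box and 1 the CHR letters (10%). These splits were not tested. These shares describe letters in a window and say nothing of binding.

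Libraries of the Myc experiment held 14753177 to 17949430 counts, of which the 36 genes had 21 to 2197 each, and those of the HU experiment held 2315327 to 3082202 counts, of which the 36 genes had 8 to 437 each. Levels are given as CPM, counts scaled to the TMM-adjusted library total. In WT Ctrl and per kb of exon, for the 35 genes with an mm9 gene model that could be matched, the highest level was that of Rfwd3, at 17.3 CPM per kb, and the lowest were those of Fancc, at 0.70, and Fancg, at 0.47. Replicates of WT Myc differed most, with a squared difference of 11.05 times that of counting noise against 2.21 to 4.56 times in the other 9 groups. Of 12 hepatocyte markers, Alb and Hnf4a among them, 0 were listed in either table, although the labels give liver and HCC, and 0 of 5 endothelial markers were. Of 5 markers of cholangiocytes and liver progenitors 3 were listed, Krt19, Sox9 and Spp1, with a summed level of 498 to 2835 CPM.

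The targeted gene was checked first. Trim33 was at 246 and 258 CPM in WT Ctrl and at 123 and 130 in KO1 Ctrl, while KO2 Ctrl had 201 and 207. Under the Myc vector it was at 131 and 155 CPM in WT, at 185 and 193 in KO1 and at 124 and 125 in KO2, so that the libraries labelled KO1 Myc had more Trim33 mRNA than those labelled WT Myc, by 0.40 ± 0.07 (log2FC ± SE, edgeR adjusted p = 0.000243). Myc itself was at 433 and 439 CPM in WT Ctrl and at 456 and 458 in WT Myc, a log2FC of 0.07 ± 0.05 (edgeR adjusted p = 0.31). With the Ctrl vector Myc was lower in the knockout lines, at 186 and 196 CPM in KO1 and at 210 and 219 in KO2. Under the Myc vector it was at 621 and 646 CPM in KO1 and at 459 and 499 in KO2. Trim33 mRNA thus goes against the labels in the Myc-vector libraries, and these are called libraries labelled WT Myc, KO1 Myc and KO2 Myc. A guide that shifts the reading frame need not lower the mRNA, so this check is of limited weight for the knockout libraries. Trim33 also differed within the cells given the control guide, by -0.82 ± 0.07 in the libraries labelled WT Myc against WT Ctrl (edgeR adjusted p = 6.98e-08). The cause was not tested. The KO1 and KO2 lines also differed from each other in opposite directions under the 2 vectors in the 6 listed of 8 genes of stellate cells and fibroblasts, such as Col1a1, whose summed level was 714 to 795 CPM in KO1 Ctrl and 717 to 732 in the libraries labelled KO2 Myc, but 176 to 195 in KO2 Ctrl and 106 to 114 in those labelled KO1 Myc. In the HU experiment Trim33 was as labelled, at 125 to 142 CPM in WT and 43.8 to 52.2 in KO libraries.

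The first question was how loss of Trim33 relates to these genes in unchallenged cells with the Ctrl vector. Averaged over KO1 and KO2, 24 of the 36 genes rose, 3 fell and 9 did not pass the test (edgeR quasi-likelihood test, adjusted p below 0.01 over all genes), while 26.0% of all genes tested rose and 29.5% fell. The median log2FC of the 36 was 0.53, against -0.01 over all genes. In KO1 alone 21 rose and 2 fell, with a background of 25.5% and 26.7%, and in KO2 alone 23 rose and 2 fell, with a background of 23.3% and 26.6%. The median log2FC was 0.48 in KO1 and 0.60 in KO2, both against the same pair of WT Ctrl libraries, so that neither line is independent evidence for the other. Without the libraries labelled Myc in the fit, the average of the lines again gave 24 that rose and 3 that fell. KO1 gave 24 and 3, and KO2 gave 24 and 2. Of all genes, 63.8%, 61.5% and 59.4% were then called in either direction. Bulk RNA cannot tell a change in every cell from a change in the share of cells that express a gene.

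The core complex was uneven. Fanca, Fancb, Fancc, Fancg and Fancm rose in the average of the lines and the other 4, Fance, Fancf, Fancl (the ligase subunit) and Ube2t (its partner enzyme that carries ubiquitin), did not pass the test. Fancg, an adaptor of the complex (Entrez 60534, chr4:43015215-43023378 in mm9, minus strand), had the largest rise of the 36 genes. It was at 1.48 and 2.05 CPM in WT Ctrl, against 5.46 and 5.59 in KO1 Ctrl, while KO2 Ctrl had 5.62 and 3.84. All 4 knockout libraries lay above both WT libraries, with a log2FC of 1.52 ± 0.21 (edgeR adjusted p = 9.98e-06) that rests on as few as 21 counts in WT Ctrl. Fancm, a translocase that anchors the complex, rose by 0.87 ± 0.11 and Fanca by 0.82 ± 0.09 (log2FC ± SE), whereas the values of Fance and Fancf were 0.01 ± 0.09 and -0.03 ± 0.10. Fancd2 and Fanci, the clamp that the core complex modifies, rose by 0.55 ± 0.11 and 0.93 ± 0.10.

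Fancb, which sits beside Fancl in the complex (Entrez 237211, chrX:161418524-161435204 in mm9, plus strand), was the clearest point of difference between the lines. It was at 9.11 and 8.61 CPM in WT Ctrl, against 10.1 and 7.89 in KO1 Ctrl, while KO2 Ctrl had 20.4 and 22.0. Its average over the lines therefore came from KO2, where the log2FC was 1.26 ± 0.12, while KO1 gave 0.02 ± 0.14. In the direct comparison of KO2 with KO1, 2 of the 36 genes were higher and 0 lower (edgeR; 3 were lower at an unadjusted p below 0.05, and 0 lower with DESeq2), with 8.33% and 9.96% of all genes higher and lower. These were Fancb, at 1.24 ± 0.12 (edgeR adjusted p = 1.1e-06), and Brca2, at 0.71 ± 0.11 (edgeR adjusted p = 0.00014). With the Ctrl libraries alone in the fit the count was 9, of which 8 were higher and these 2 were part. The share of all genes called in either direction was then 29.9%, against 18.3% in the main fit.

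Among the genes of the Brca axis, Brca1, Palb2 and Brca2 rose and Bard1 did not pass the test. Brca1, a ubiquitin ligase subunit (Entrez 12189, chr11:101350078-101413269 in mm9, minus strand), was at 31.4 and 30.4 CPM in WT Ctrl, against 47.9 and 57.2 in KO1 Ctrl, while KO2 Ctrl had 66.9 and 69.8 CPM, with no overlap between WT and knockout libraries. Its log2FC was 0.96 ± 0.10 (edgeR adjusted p = 6.11e-07). Bard1, the obligate partner of Brca1, was at 23.6 and 23.8 CPM in WT Ctrl and at 23.8 to 28.8 in the knockout libraries, a log2FC of 0.20 ± 0.09 (edgeR adjusted p = 0.0692). Brca2, a mediator of strand exchange (Entrez 12190, chr5:151325205-151372321 in mm9, plus strand), was at 33.8 and 31.2 CPM in WT Ctrl, against 36.7 and 42.7 in KO1 Ctrl, while KO2 Ctrl had 64.3 and 65.8. The rise of Brca2 passed the test in KO2 (1.00 ± 0.12) and not in KO1 (0.29 ± 0.12, edgeR adjusted p = 0.0471). Palb2, which joins Brca1 to Brca2, rose by 0.90 ± 0.11.

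**Figure D1:**
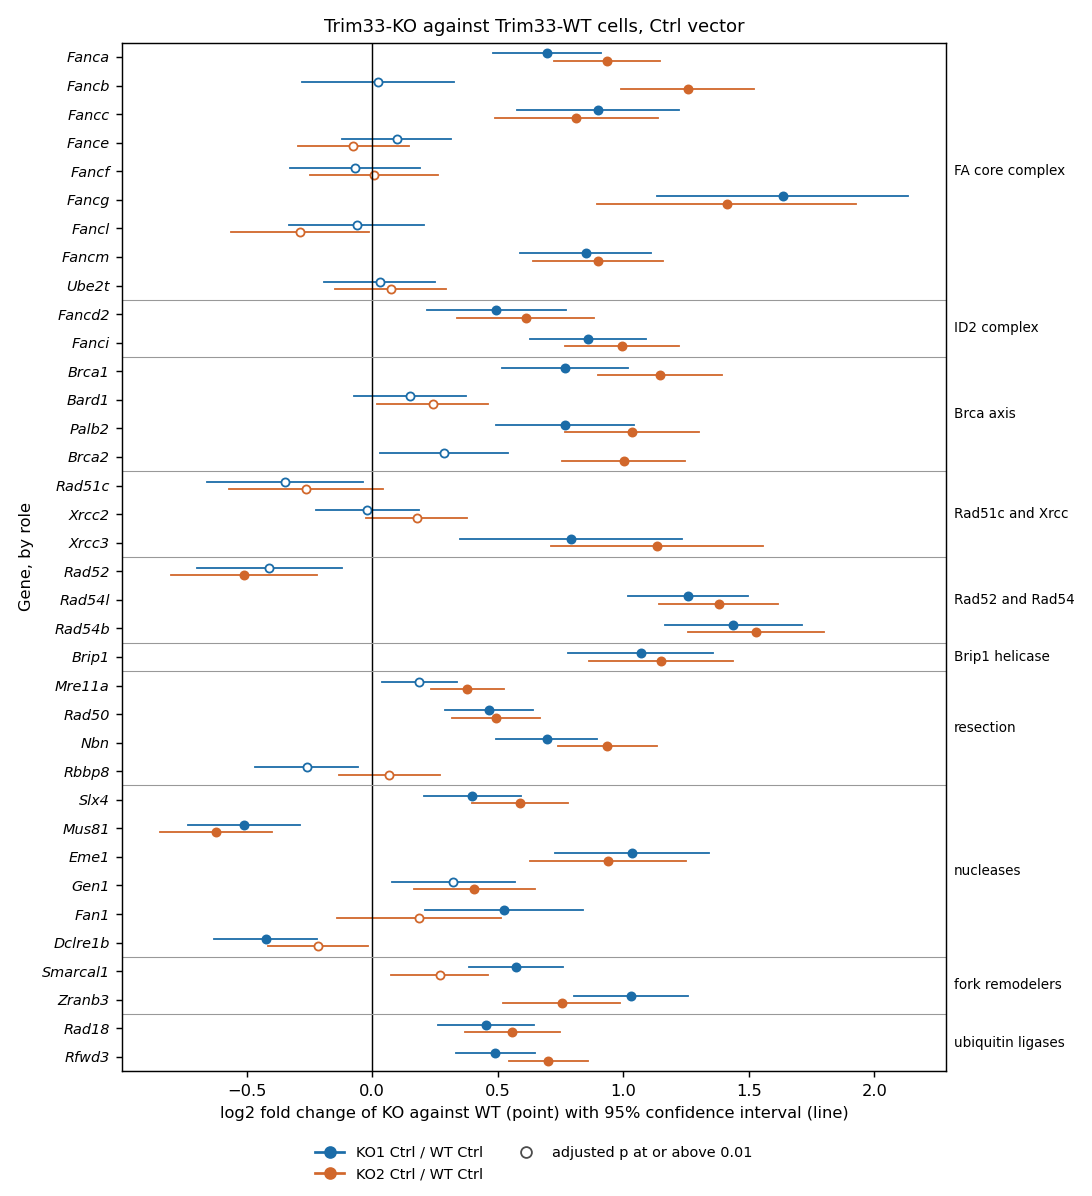
The log2 fold change of Trim33-KO1 (blue) and Trim33-KO2 (orange) against Trim33-WT cells with the Ctrl vector is plotted on the x axis for each of the 36 genes on the y axis, with the 95% confidence interval as a line and filled points where the edgeR adjusted p was below 0.01. To the right of 0 lie 28 points in KO1 and 30 in KO2, the largest being those of Fancg, Rad54b and Rad54l. Those to the left in both lines include Mus81, Rad52 and Dclre1b, which fell by the test in the average of the lines, and Rad51c, which did not pass it.

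Of the genes that assist strand pairing, the translocases rose most. Rad54b was at 5.44 and 6.02 CPM in WT Ctrl, against 14.8 and 16.2 in KO1 Ctrl, while KO2 Ctrl had 17.6 and 15.5 CPM, for a log2FC of 1.48 ± 0.11 (edgeR adjusted p = 9.94e-09). Rad54l (Entrez 19366, chr4:115766869-115796295 in mm9, minus strand) was at 9.11 and 8.20 CPM in WT Ctrl, against 19.96 and 21.5 in KO1 Ctrl, while KO2 Ctrl had 22.3 and 22.8 CPM, for a log2FC of 1.32 ± 0.10 (edgeR adjusted p = 8e-09). For both genes every knockout library held more than 2 times the level of either WT library. Rad52, which anneals single strands (Entrez 19365, chr6:119852716-119872846 in mm9, plus strand), moved the other way, from 8.20 and 9.71 CPM in WT Ctrl to 6.79 and 6.70 in KO1 Ctrl, and KO2 Ctrl had 6.73 and 5.85. Its log2FC was -0.46 ± 0.12 (edgeR adjusted p = 0.00258), and this call was lost with DESeq2 and without the second WT Ctrl library, where the log2FC was -0.33, or without the second KO2 Ctrl library, where it was -0.41. Of the paralogs Rad51c, Xrcc2 and Xrcc3, Xrcc3 rose by 0.96 ± 0.18, and the other two did not pass the test, at -0.30 ± 0.13 and 0.08 ± 0.08. Brip1, the helicase bound to Brca1, rose by 1.11 ± 0.12.

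Of the genes that trim ends, Mre11a (0.28 ± 0.06), Rad50 (0.48 ± 0.07) and Nbn (0.82 ± 0.08) rose, and Rbbp8, their cofactor, was at -0.10 ± 0.08. The call of Mre11a was lost without the second WT Ctrl library, where it was 0.23. The nucleases split. Eme1 (0.99 ± 0.13), the scaffold Slx4 (0.49 ± 0.08) and the resolvase Gen1 (0.36 ± 0.10) rose, and Fan1 was at 0.36 ± 0.13, short of the threshold (edgeR adjusted p = 0.0267). Mus81, the catalytic partner of Eme1 (Entrez 71711, chr19:5482345-5488402 in mm9, minus strand), fell from 25.4 and 22.6 CPM in WT Ctrl to 16.4 and 17.3 in KO1 Ctrl, and KO2 Ctrl had 15.5 and 15.6. Its log2FC of -0.57 ± 0.09 (edgeR adjusted p = 3.62e-05) was the largest fall of the 36 genes, so that the subunits of 1 nuclease changed in opposite directions. Dclre1b, an exonuclease known as Apollo (Entrez 140917, chr3:103604528-103613367 in mm9, minus strand), was at 17.0 and 16.1 CPM in WT Ctrl, against 12.6 and 12.03 in KO1 Ctrl, while KO2 Ctrl had 14.7 and 13.7. Its log2FC of -0.32 ± 0.08 (edgeR adjusted p = 0.00263) was not called with DESeq2, nor without either WT Ctrl library, the second KO1 Ctrl library or the second KO2 Ctrl library, where it lay from -0.36 to -0.28. Gen1 was not called with DESeq2, nor without either WT Ctrl library, the second KO1 Ctrl library or the first KO2 Ctrl library, with a log2FC from 0.30 to 0.44.

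Both fork remodelers rose, Zranb3 by 0.89 ± 0.10 and Smarcal1 by 0.42 ± 0.08, and so did both remaining ubiquitin ligases, Rfwd3, which acts on Rpa, by 0.60 ± 0.07 and Rad18, which acts on Pcna, by 0.51 ± 0.08. Among the 56 further genes of the same pathways that were listed for comparison, 28 rose and 8 fell in the average of the lines, with a median log2FC of 0.25. Their largest rises were those of Dna2, a nuclease and helicase of end resection, at 2.13 ± 0.16, Fignl1, an ATPase of recombination, at 1.44 ± 0.08, and Rmi2, of the Blm complex, at 1.40 ± 0.17. Their largest falls were those of Abraxas1 and Babam2, subunits of the complex that holds Brca1 back from resection, at -0.97 ± 0.11 and -0.66 ± 0.06, and of Ercc1, the partner of the nuclease Ercc4, at -0.58 ± 0.09. Of 20 genes of the competing route, end joining, 6 rose and 3 fell, with a median of 0.02, while 26.0% of all genes rose and 29.5% fell. All 10 of 10 proliferation genes, such as Mki67 and Ccnb1, rose in the same comparison, with a median log2FC of 0.68, and their summed level was 1416 to 1481 CPM in WT Ctrl, 2134 to 2252 in KO1 Ctrl and 2700 to 2739 in KO2 Ctrl. Their part in the values of the repair genes was not tested.

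**Figure D2:**
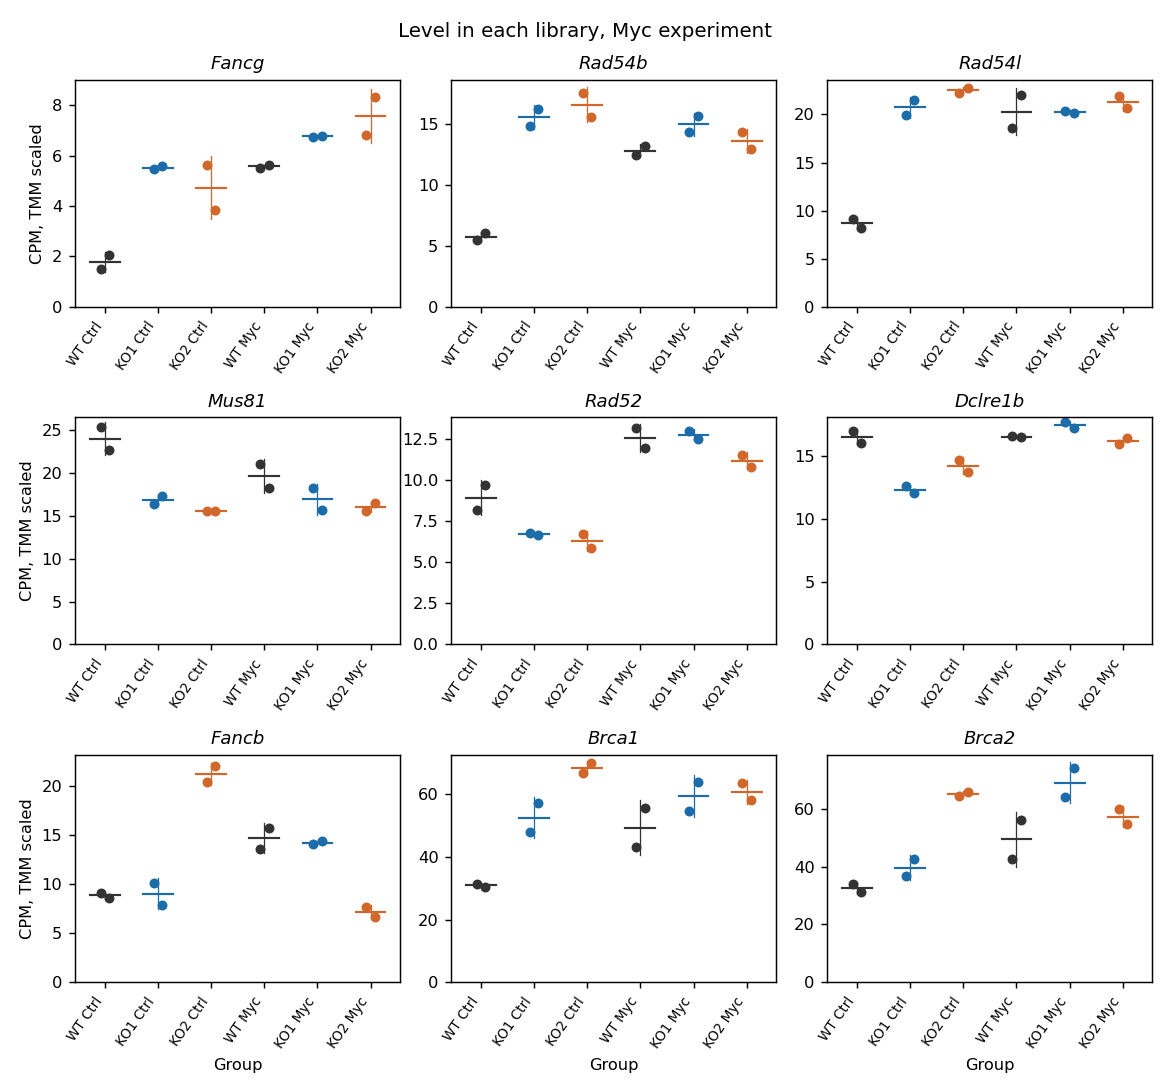
The level in CPM is plotted for 9 genes in each library of the 6 groups of the Myc experiment, with points for the 2 libraries, a horizontal bar for their mean and a vertical line for its SD. For Fancg, Rad54b and Rad54l both WT Ctrl libraries lie below every library of the other 5 groups, and Fancb is highest in KO2 Ctrl and lowest in the libraries labelled KO2 Myc.

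The second question was how these genes respond to the Myc vector, with the limits on the labels given above. In Trim33-WT cells 21 of the 36 genes were higher in the libraries labelled Myc than in those labelled Ctrl and 0 were lower (edgeR; 1 was lower at an unadjusted p below 0.05, and 0 with DESeq2), with a background of 21.6% higher and 22.7% lower. The median log2FC was 0.47. Fancg led again, at 5.53 and 5.62 CPM in the libraries labelled WT Myc against 1.48 and 2.05 in WT Ctrl, a log2FC of 1.65 ± 0.23. It was followed by Rad54l at 1.23 ± 0.11, with 18.6 and 22.0 CPM against 9.11 and 8.20, and by Rad54b at 1.16 ± 0.13, with 12.4 and 13.2 CPM against 5.44 and 6.02. Zranb3 rose by 1.10 ± 0.10, Xrcc3 by 0.87 ± 0.20, Brip1 by 0.82 ± 0.14 and Brca1 by 0.68 ± 0.12. The FA core complex had 6 of 9 genes higher, here with Fance (0.46 ± 0.10) and Ube2t (0.52 ± 0.10), neither of which passed the test between knockout and WT cells. The call of Fance was lost without the first library labelled WT Myc (0.30), and that of Xrcc3 without the second WT Ctrl library (0.78). Of the 56 further pathway genes 28 rose and 5 fell, with a median of 0.30.

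The 3 genes that fell in knockout cells were not lower here by the test. Rad52 was at 13.2 and 12.01 CPM in the libraries labelled WT Myc and rose by 0.49 ± 0.12, a call lost with DESeq2, in the compared groups alone, without the first WT Ctrl library (0.37) and without the first library labelled WT Myc (0.42). Mus81 was at 21.0 and 18.2 CPM and Dclre1b at 16.6 and 16.5 CPM there, and neither passed the test, with a log2FC of -0.29 ± 0.10 for Mus81 (edgeR adjusted p = 0.0216) and of 0.0033 ± 0.09 for Dclre1b. Of the 10 proliferation genes 8 rose with a median of 0.53, and their summed level was 1778 to 1954 CPM, which again moves with the repair genes and whose part was not tested. The replicates labelled WT Myc stood apart from each other, for Brca1 at 43.1 and 55.5 CPM and for Brca2 at 42.8 and 56.1.

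**Figure D3:**
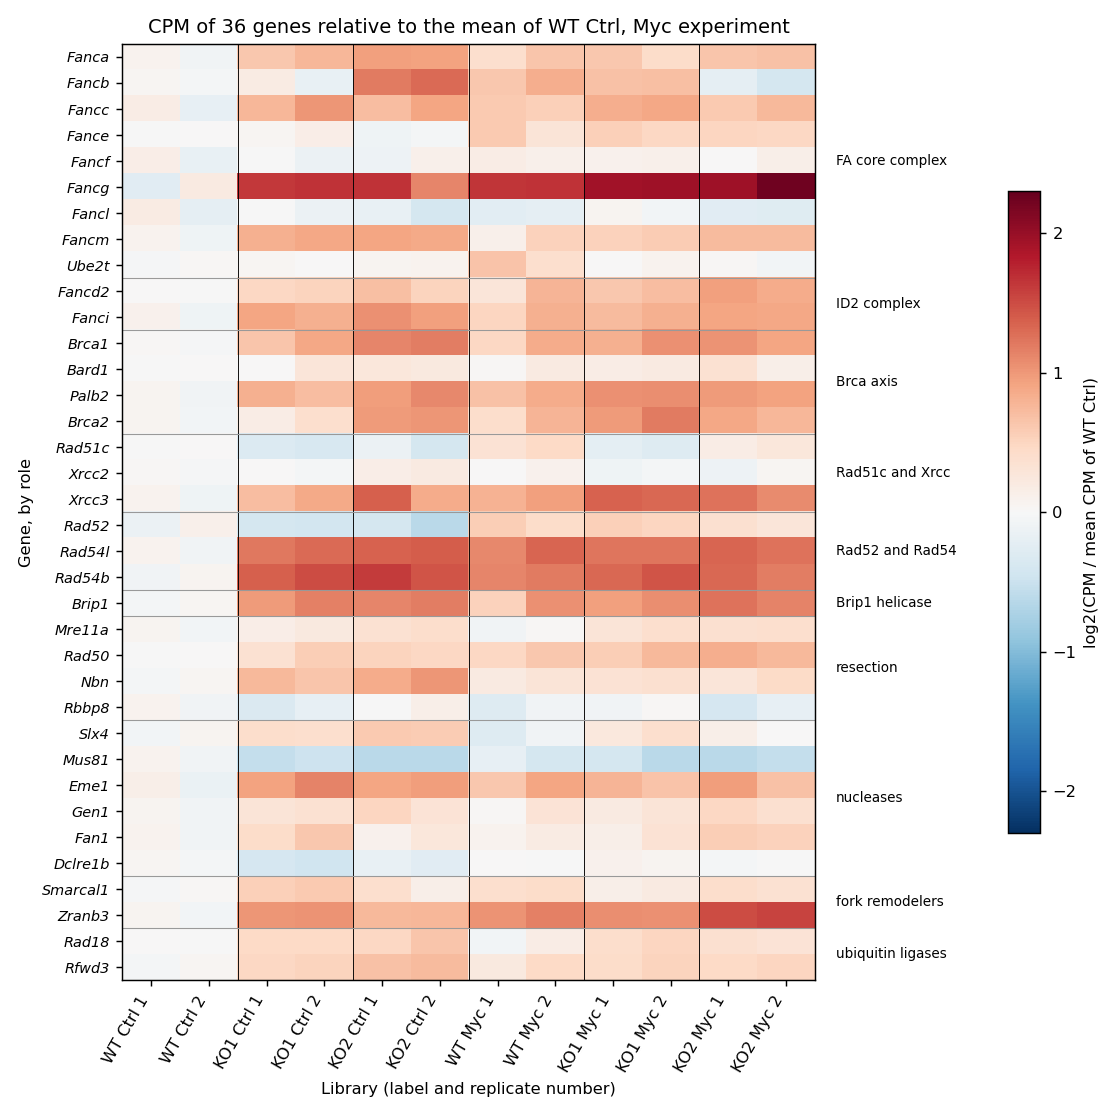
Color gives the log2 ratio of the level of each of the 36 genes (rows, by role) to its mean in WT Ctrl, in each of the 12 libraries of the Myc experiment (columns), red for higher and blue for lower. The rows of Fancg, Rad54l, Rad54b and Brip1 are red in all 10 libraries outside WT Ctrl, and that of Rad52 is blue in the knockout Ctrl libraries and red in the libraries labelled Myc.

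In the knockout lines the response to the Myc vector was mixed. In KO1, 5 of the 36 genes were higher and 2 lower in the libraries labelled Myc, with a background of 17.9% and 18.2% and a median log2FC of 0.02. In KO2, 6 were higher and 4 lower, with a background of 20.2% and 18.6% and a median of -0.04. The count of 7 in KO1 became 4 without the first library labelled KO1 Myc, and that of 10 in KO2 became 6 without the second KO2 Ctrl library. Rad52 rose in each line, to 13.0 and 12.5 CPM in the libraries labelled KO1 Myc (0.92 ± 0.13) and to 11.6 and 10.8 in those labelled KO2 Myc (0.83 ± 0.13). Fance rose as well, by 0.42 ± 0.10 and 0.57 ± 0.10, and Nbn fell by 0.35 in KO1 and by 0.58 in KO2, each with an SE of 0.09. In KO1 these calls of Fance and Nbn were lost without the first KO1 Ctrl library (0.36 and -0.29) or the first library labelled KO1 Myc (0.40 and -0.31), and that of Nbn also with DESeq2 and without the second library labelled KO1 Myc (-0.37). Fancb, by the labels, was higher in one line and lower in the other, with 14.1 and 14.3 CPM in the libraries labelled KO1 Myc (0.66 ± 0.13) and 7.65 and 6.68 CPM in those labelled KO2 Myc (-1.56 ± 0.12). The rise of Fancb in KO1 was lost without the second KO1 Ctrl library (0.49). Brca2 reached 64.0 and 74.2 CPM in the libraries labelled KO1 Myc, a rise of 0.80 ± 0.11, and was at 59.8 and 54.9 CPM in those labelled KO2 Myc, where it did not pass the test. In Brca2, Trim33 and the collagen genes above, the libraries labelled KO1 Myc thus lay nearer to KO2 Ctrl than to KO1 Ctrl, and in Fancb, Trim33 and the collagen genes those labelled KO2 Myc lay nearer to KO1 Ctrl than to KO2 Ctrl. The labels of these 4 libraries may be exchanged between the lines, which the data used here cannot settle, and so each line's Ctrl libraries were also set against the Myc libraries labelled as the other line, a comparison chosen after the data were seen. For KO1 Ctrl it gave 8 genes higher and 2 lower, with 28.8% of all genes called in either direction, and for KO2 Ctrl 2 higher and 3 lower, with 29.5%. Fancb then had a log2FC of -0.33 ± 0.14 for KO1 Ctrl (edgeR adjusted p = 0.0751) and of -0.58 ± 0.11 for KO2 Ctrl (edgeR adjusted p = 0.000664), so that its opposite directions depend on the labels. Rad52 (0.73 ± 0.13 and 1.02 ± 0.13), Fance (0.39 ± 0.10 and 0.59 ± 0.10) and Nbn (-0.34 ± 0.09 and -0.59 ± 0.09) passed the test in the same directions either way, and Brca2 did so for KO1 Ctrl (0.53 ± 0.11). Of the 10 proliferation genes, 0 rose and 3 fell in KO1 and 0 rose and 8 fell in KO2 (edgeR).

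Fancg, Rad54b and Rad54l, the genes with the largest rises in knockout cells, stayed high with the Myc vector. Fancg was at 6.74 and 6.79 CPM in the libraries labelled KO1 Myc and at 6.82 and 8.34 in those labelled KO2 Myc. The latter was a further rise over KO2 Ctrl, of 0.68 ± 0.17, which was lost with DESeq2, without the second KO2 Ctrl library (0.44), without the second library labelled KO2 Myc (0.53) and with the libraries labelled KO1 Myc in place of those labelled KO2 Myc (0.52). Rad54b was at 14.3 and 15.6 CPM in KO1 and at 14.3 and 12.9 in KO2. Rad54l was at 20.4 and 20.2 CPM in KO1 and at 21.9 and 20.7 in KO2. For each of the 3 genes these levels lay above both WT Ctrl libraries, and Rad54l also lay within the range of the libraries labelled WT Myc.

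Between the genotypes under the Myc vector few of the 36 genes passed the test. In the libraries labelled KO1 Myc against those labelled WT Myc, 4 were higher and 2 lower, with a background of 12.6% and 12.5% and a median log2FC of 0.10. Mre11a (0.37 ± 0.07), Slx4 (0.50 ± 0.09), Brca2 (0.48 ± 0.11) and Rad18 (0.39 ± 0.09) were higher, and Rad51c (-0.65 ± 0.13) and Ube2t (-0.48 ± 0.10) were lower. In the libraries labelled KO2 Myc, 2 were higher and 2 lower, with a background of 17.2% and 18.0% and a median of 0.13. Mre11a (0.40 ± 0.07) and Zranb3 (0.43 ± 0.09) were higher, and Fancb (-1.04 ± 0.13) and Ube2t (-0.54 ± 0.10) were lower. These counts changed with the library left out, and so did the shares of all genes called. With the compared groups alone in the fit the count for KO1 was 0. The share of all genes called for KO1 was then 12.2%, against 25.1% in the main fit.

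The difference between the genotypes in the response to the Myc vector was tested directly, as an interaction over the average of the lines, which does not depend on which knockout line is which. It does depend on the libraries labelled WT Myc. Against WT Ctrl these had a log2FC of -0.82 ± 0.07 for Trim33 and of 0.07 ± 0.05 for Myc. In the knockout lines, as labelled, Myc mRNA rose with the vector by 1.73 ± 0.06 in KO1 and by 1.16 ± 0.06 in KO2. The interaction for Myc mRNA was 1.38 ± 0.07 (edgeR adjusted p = 3.44e-10), and its part in the values below was not tested. Of the 36 genes 0 were higher and 17 lower (edgeR; 3 were higher at an unadjusted p below 0.05, and 0 with DESeq2), with a background of 18.1% higher and 16.6% lower, and the median was -0.40. The 17 came from every role except that of Rad51c, Xrcc2 and Xrcc3. The largest were Rad54b at -1.33 ± 0.15, Rad54l at -1.29 ± 0.13, Fancb at -1.18 ± 0.16 and Fancg at -1.16 ± 0.27 (edgeR adjusted p from 8.7e-07 to 0.002), and the call of Fancg was lost without the first WT Ctrl library, where it was -0.95. These contrasts share WT Ctrl, in which 23 of the 36 genes had their lowest mean of the 6 groups, so that the interaction is not independent of the rises given above. Of the 56 further pathway genes 5 were higher and 22 lower, with a median of -0.27. Of the 10 proliferation genes 9 were lower, with a median of -0.68, and their part in the values of the repair genes was not tested.

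**Figure D4:**
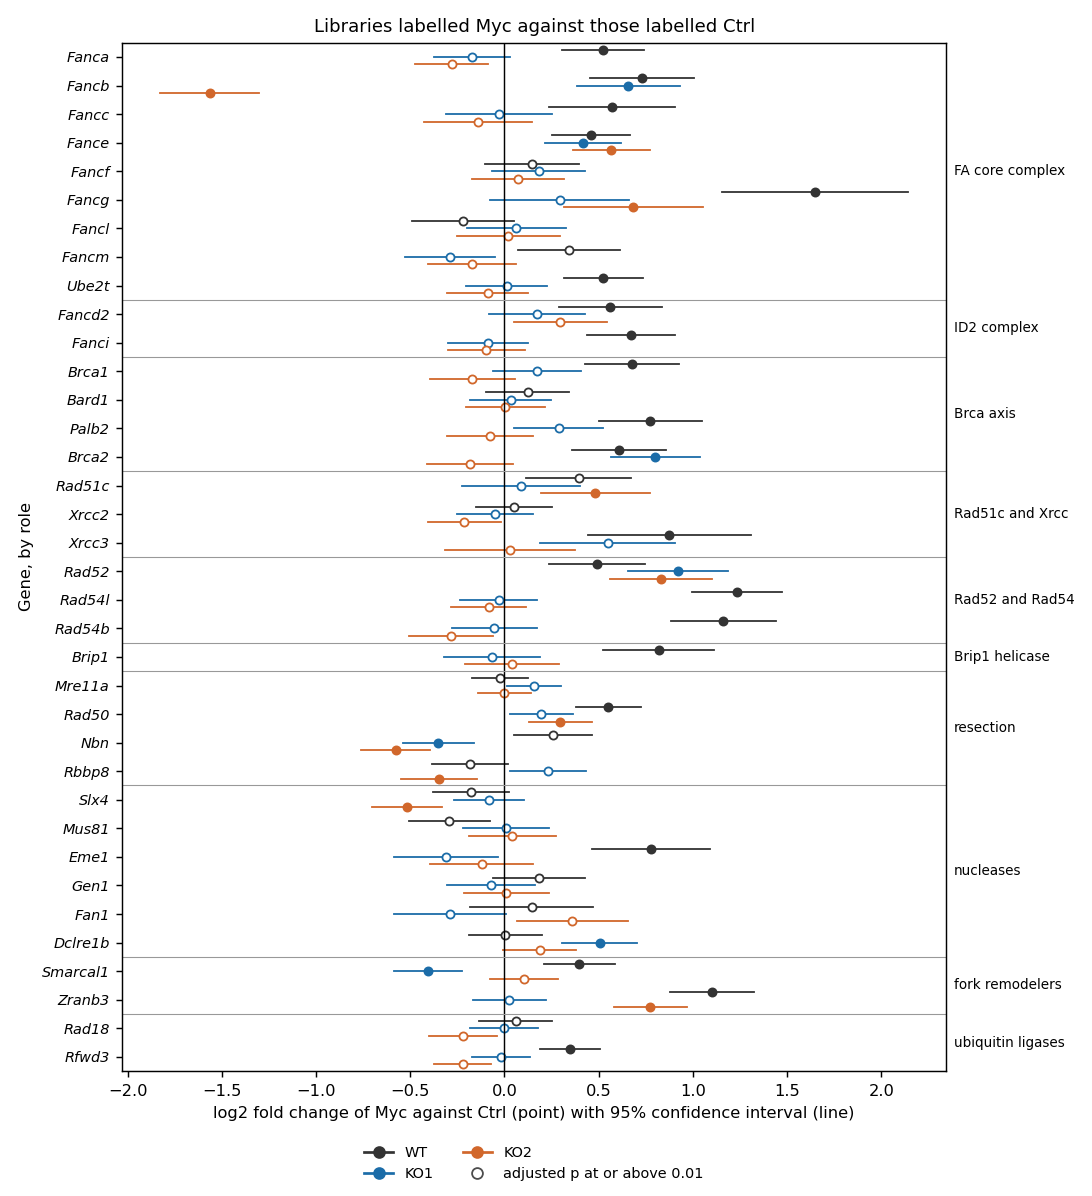
The log2 fold change of libraries labelled Myc against those labelled Ctrl is plotted on the x axis in Trim33-WT (black), KO1 (blue) and KO2 (orange) cells for each of the 36 genes on the y axis, with the 95% confidence interval as a line and filled points where the edgeR adjusted p was below 0.01. The black points lie mostly to the right of 0, with a median of 0.47, and the blue and orange ones around 0, with medians of 0.02 and -0.04.

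The third question was the response to HU, which stalls forks in both genotypes. In Trim33-WT cells 2 of the 36 genes rose and 0 fell (edgeR, adjusted p below 0.05; 0 fell at an unadjusted p below 0.05, and 0 with DESeq2), with a background of 6.39% and 3.44%. In Trim33-KO cells 1 rose and 0 fell (edgeR; 1 was lower at an unadjusted p below 0.05, and 0 with DESeq2), with a background of 4.65% and 1.80%. The medians were 0.01 and -0.07. Brca1 rose in each genotype. It was at 100.7 and 86.5 CPM in WT vehicle and at 133 and 121 in WT HU, a log2FC of 0.44 ± 0.14 (edgeR adjusted p = 0.0321), and at 79.7 and 88.5 CPM in KO vehicle and at 128 and 125 in KO HU, a log2FC of 0.58 ± 0.14 (edgeR adjusted p = 0.00395). The treated libraries lay above the vehicle libraries in both genotypes, and the interaction was 0.14 with a 95% interval from -0.26 to 0.55.

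Slx4, the scaffold of nucleases (Entrez 52864, chr16:3979105-4003770 in mm9, minus strand), was at 49.7 and 39.8 CPM in WT vehicle and at 62.0 and 74.1 in WT HU, a log2FC of 0.61 ± 0.19 (edgeR adjusted p = 0.0275). In KO cells it was at 39.0 and 47.8 CPM in vehicle and at 56.9 and 49.8 in HU, where it did not pass the test, and the interaction was -0.31 with an interval from -0.86 to 0.23. The calls in WT cells were lost with DESeq2 and without the second WT vehicle library or either WT HU library, where the log2FC of Brca1 lay from 0.32 to 0.51 and that of Slx4 from 0.44 to 0.73. The call of Brca1 in KO cells was lost without the first KO vehicle library (0.52) or the first KO HU library (0.57). Of the 56 further pathway genes 0 passed in WT cells (edgeR), and in KO cells 1 rose and 1 fell, the latter Parpbp, which holds back recombination (-0.998 ± 0.25). Of the 10 proliferation genes 4 fell in WT cells, and 4 fell and 1 rose in KO cells.

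Between the genotypes Brca2 was lower in Trim33-KO cells, and no other gene of the 36 passed the test. In vehicle 0 of the 36 were higher and 1 lower (edgeR; 0 were higher at an unadjusted p below 0.05, and 0 with DESeq2), with a background of 6.29% and 5.74%, and in HU again 0 were higher and 1 lower (edgeR; 0 at an unadjusted p below 0.05, and 0 with DESeq2), with a background of 5.75% and 5.25%. Brca2 was at 73.3 and 81.2 CPM in WT vehicle and at 65.0 and 42.4 in KO vehicle, a log2FC of -0.54 ± 0.18 (edgeR adjusted p = 0.0346), and the libraries did not overlap although the KO replicates lay far apart. In HU it was at 97.0 and 91.4 CPM in WT and at 63.6 and 56.9 in KO, a log2FC of -0.64 ± 0.17 (edgeR adjusted p = 0.00691). In the Myc experiment, whose table was normalized separately, Brca2 was at 31.2 to 33.8 CPM in WT Ctrl and at 36.7 to 65.8 in the knockout Ctrl libraries. In vehicle the call was lost with DESeq2 and the compared groups alone, and without either WT vehicle library or the second KO vehicle library, where the log2FC lay from -0.61 to -0.25. In HU it was lost without the first WT HU library (-0.60) or the second KO HU library (-0.57), and without the first KO HU library 2 of the 36 genes passed.

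Over the 36 genes, the median log2FC of KO against WT was -0.02 in vehicle, with 15 above 0, and -0.03 in HU, with 16 above 0. In the average of the knockout lines of the Myc experiment it was 0.53, with 29 above 0. The 3 genes that fell there had a higher mean in KO than in WT vehicle. These means were 8.76 against 5.84 CPM for Rad52, 15.4 against 11.9 for Mus81 and 29.8 against 24.7 for Dclre1b, and none passed the test. The genes that rose most in the knockout lines of the Myc experiment were not called between the genotypes here. In vehicle, Fancg was at 7.71 and 7.52 CPM in WT and at 5.69 and 7.35 in KO, a log2FC of -0.21 with a 95% interval from -1.28 to 0.85. Rad54b was at 31.7 and 12.4 CPM in WT and at 19.5 and 23.7 in KO, with an interval from -0.64 to 0.63, and Rad54l was at 24.8 and 24.1 CPM in WT and at 26.0 and 37.1 in KO, with an interval from -0.14 to 0.89. All 3 intervals end below the log2FC of 1.32 to 1.52 that these genes had in the Myc experiment, which used other libraries at a greater depth, and this difference between the experiments was not tested. Fancc, at 10.7 and 11.3 CPM in WT and 6.50 and 3.34 in KO vehicle, had the largest difference in size, a log2FC of -1.18 ± 0.51 (edgeR adjusted p = 0.131), at 10 counts in the lowest of these libraries. Of the 10 proliferation genes 1 was higher and 0 lower in KO vehicle (edgeR). The interaction of genotype and HU gave 0 of the 36 genes in either direction (edgeR; 0 at an unadjusted p below 0.05, and 0 with DESeq2), with a background of 0.0446% higher and 0.0268% lower, and SEs from 0.19 to 0.77 limit what it could show.

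**Figure D5:**
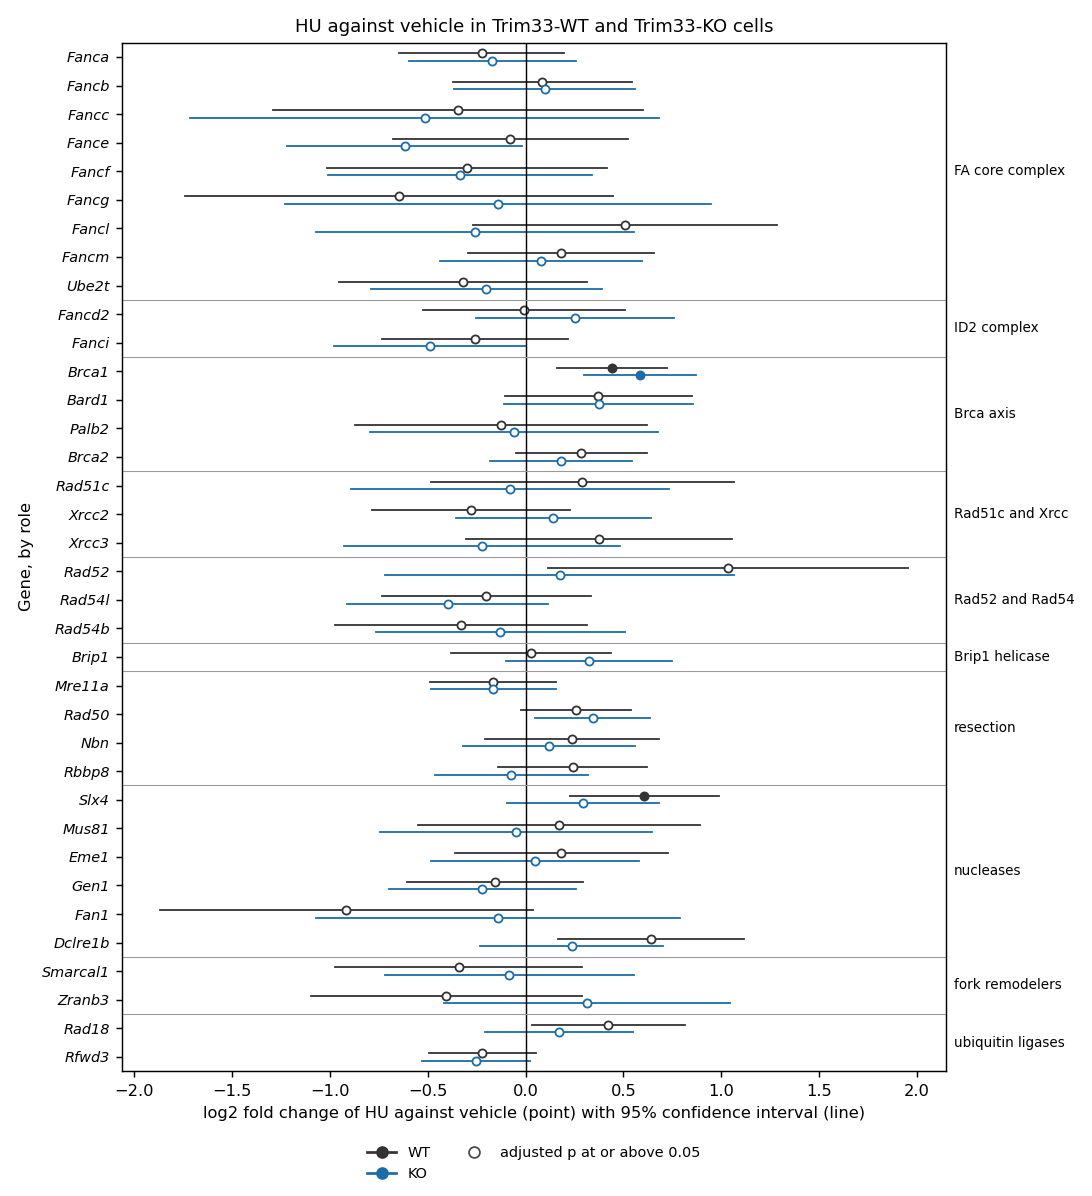
The log2 fold change of HU against vehicle is plotted on the x axis in Trim33-WT (black) and Trim33-KO (blue) cells for each of the 36 genes on the y axis, with the 95% confidence interval as a line and filled points where the edgeR adjusted p was below 0.05. The filled points are Brca1 in both genotypes and Slx4 in WT cells, and most other intervals span 0.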

How the data were processed

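RNA-seq was performed in 20 libraries of p19/Nras cells, 2 for each of 10 groups taken from the sample labels. The authors deposited whole-number counts per gene, for reads mapped to mm9 with STAR 2.5.4 (per the labels). How reads were counted, with which annotation and filter, is not given in the sources used here. One table is called normalized by its name (Myc experiment), but holds whole numbers with totals that differ between libraries. These were treated as counts, and whether they had been scaled before was not tested. The submitters' processing notes also name edgeR 3.26.8, bcl2fastq 2.20 and FastQC 0.11.5. The authors' own edgeR results (fold changes and p-values for single comparisons) were not used here.

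Each experiment was fitted alone with edgeR 4.0.16 (R 4.3.3, limma 3.58.1) by TMM, filterByExpr, which removed 0 genes, and the quasi-likelihood test with a coefficient for each group, with Benjamini-Hochberg adjustment over all genes and thresholds of 0.01 (Myc experiment) and 0.05 (HU experiment). The SE is that of the log2FC. The procedure was tested on simulated data. Values of every library are given for the 3 largest rises and 3 largest falls among genes called in the average of KO1 and KO2 against WT Ctrl, and for genes called between HU groups. Of other pathway genes the same 3 and 3 are named. Trim33 and Myc check the labels. Fancb and Parpbp, and the library values of Bard1 and Fancc, were added after their values were seen. Some genes counted in the comparison lists are not reported here by name. The genes, lists and tests were chosen with earlier results of these data known. Alternatives were the compared groups or Ctrl libraries alone, a replicate block, no filter, a 5 CPM filter, upper-quartile scaling, an absolute log2FC of at least 1, DESeq2 1.42.0, counts divided by 2 in the HU experiment, each library left out, and, added after the data were seen, the Myc libraries labelled as the other knockout line.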

Additional observations from a re-analysis of the deposited data

Results flagged for a closer look

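The difference between the Trim33-KO lines with the Ctrl vector passed edgeR's test for 2 of the 36 genes, which were higher in KO2 than in KO1 by 1.24 (log2FC, Fancb) and 0.71 (Brca2). Over all genes 8.33% were higher and 9.96% lower in KO2. The response to the Myc vector, as labelled, differed between Trim33-KO cells (average of the lines) and Trim33-WT cells by the test of the interaction for 17 genes, each with a lower log2FC in knockout cells. Over all genes 18.1% were higher and 16.6% lower by this test. For the Fanconi core complex and its partners the differences were -0.75 for Fanca, -1.18 for Fancb, -0.66 for Fancc, -1.16 for Fancg, -0.57 for Fancm, -0.56 for Ube2t and -0.77 for Fanci. For the genes of recombination they were -0.68 for Brca1, -0.67 for Palb2, -1.29 for Rad54l, -1.33 for Rad54b, -0.83 for Brip1 and -0.72 for Nbn. For the nuclease subunit Eme1 the difference was -0.99, and for Smarcal1, Zranb3 and Rfwd3 it was -0.55, -0.70 and -0.47. The libraries on which these differences rest include those in which Trim33 mRNA went against the labels. By the same test Myc mRNA itself had a difference of 1.38.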

How the results depend on the processing

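Of 147 calls of a gene in a comparison, 103 were kept whichever library was left out, and 1 changed sign under an alternative, Fancb for Myc in KO1, which was at -0.33 with the Myc libraries labelled as the other knockout line (added after the data were seen), where the count of Myc in KO2 was 5. The correlation of deviations between groups was over 0.1 in 1 of 15 pairs of groups in the Myc experiment and 0 of 6 in the HU experiment. With 2 libraries in each group, this cannot show whether the replicate numbers pair the libraries. A replicate block moved the count of KO2 against KO1 in Ctrl from 2 to 4 and no other count by more than 1.5 times. It raised the share of all genes called in each comparison, for KO2 against KO1 from 18.3% to 18.8%. For HU in WT that share went from 9.83% to 11%. The count of KO2 against KO1 in Ctrl was 9 with the compared groups or the Ctrl libraries alone in the fit. Of all genes, 32.2% and 29.9% were then called. With the compared groups alone, KO1 against WT under Myc gave 0 (12.2% of all genes called) and KO against WT in vehicle 0 (8.99%). In vehicle this count was 2 with a 5 CPM filter (12.1% of all genes called), 2 with upper-quartile scaling (11.8%) and 0 with DESeq2 (6.7%). DESeq2 also gave 0 for HU in WT (6.49%). An absolute log2FC of at least 1 left 4 genes for the average of the knockout lines (14% of all genes) and 6 for KO1 (15.9%). It left 9 for KO2 (12.9%) and 1 for KO2 against KO1 (4.99%). For Myc it left 4 in WT (8.13%), 0 in KO1 (7.82%) and 1 in KO2 (9.12%). For KO1 and KO2 against WT under Myc it left 0 (5.26%) and 1 (9.39%), and for the Myc interaction 4 (7.98%). In every HU comparison it left 0, with 0.0178% to 3.67% of all genes. With a library left out, counts ranged from 23 to 27 for the average of the knockout lines, 17 to 21 for KO1, 23 to 25 for KO2, 2 to 3 for KO2 against KO1, 16 to 20 for Myc in WT, 4 to 6 in KO1, 6 to 8 in KO2, 2 to 11 and 4 to 16 for KO1 and KO2 against WT under Myc, 14 to 19 for the Myc interaction, 0 to 3 for HU in WT, 0 to 1 for HU in KO, 0 to 1 for KO against WT in vehicle and 0 to 2 in HU. Where this leaves 1 library in a group, it is assumed to vary like the others. The shares of all genes called also changed with the library left out. Removing no genes by a filter changed nothing, since filterByExpr had removed 0. In the HU experiment 71.9% of counts from 1 to 50 were even, against 48.4% in the Myc experiment, and counts divided by 2 gave the same calls. The compared groups are all groups in both interactions, so that this alternative gives no other value there. The causes were not tested.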

Other observations

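Among the 20 genes of end joining, the route that seals breaks without a template, the parts differed in direction between the Trim33-KO lines (average) and Trim33-WT cells with the Ctrl vector. Of these genes 6 rose (30%) and 3 fell, with a median log2FC of 0.02, while 26.0% of all genes rose and 29.5% fell. Polm, a polymerase that fills ends, rose by 0.82 ± 0.14 (log2FC ± SE), the break sensors Parp1 and Atm by 0.65 ± 0.06 and 0.65 ± 0.12, Mdc1 and H2ax, which mark chromatin around a break, by 0.58 ± 0.09 and 0.56 ± 0.05, and the scaffold Xrcc1 by 0.26 ± 0.07. Aptx, which cleans DNA ends, was at -0.51 ± 0.09, and the ligase Lig4 was at -0.38 ± 0.09, and both were among the genes that fell. Xrcc5, Xrcc6 and Prkdc, the complex that first binds an end, did not pass the test in this average, at -0.11 ± 0.06, 0.01 ± 0.06 and 0.10 ± 0.08. For Xrcc5 the lines differed, at 0.11 ± 0.07 in KO1 and at -0.33 ± 0.07 in KO2, where it fell (edgeR adjusted p = 0.000638), and KO2 was lower than KO1 by the test, at -0.44 ± 0.07 (edgeR adjusted p = 0.00012). The genes are named after their values were seen.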
